A study of Mus musculus with 24 samples.

Results

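The unfolded protein response and the integrated stress response were described through 34 genes, matched by symbol among the 28450 features of an expression table from mouse kidney. They were 5 transducers of the signal, 12 targets of the transcription factor ATF4 and 17 targets of the transcription factors ATF6 and XBP1. RNA was sequenced from C57BL/6 kidneys in 24 libraries, 6 in each of 4 groups. Nlrp3 knockout mice (NLPR3 in the labels) given glyoxylate are called KO Gly and wild-type mice given glyoxylate WT Gly. Nlrp3 knockout mice given saline are called KO saline and wild-type mice given saline WT saline. Glyoxylate acid (Gly), a precursor of oxalate in a model of calcium oxalate deposits in the kidney, was given at 75 mg/kg per day. Both it and saline were injected into the peritoneum in 200 µl on days 1 to 7. All groups shared the strain and the injections. The labels give no age or sex, do not say how the knockout was made, and number the libraries 1 to 6 in each group without tying a number to a litter or a day. The p-values therefore measure the spread between these samples.

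Proteins that enter the endoplasmic reticulum (ER) are folded there by chaperones, and unfolded proteins that build up are sensed by the membrane proteins IRE1 (gene Ern1), PERK (gene Eif2ak3) and ATF6. IRE1 splices the Xbp1 message and ATF6 is cut to release its active part, and both factors raise genes for chaperones and for the disposal of misfolded proteins. PERK, like other kinases of the integrated stress response, phosphorylates the initiation factor eIF2, which slows translation in general but favours that of ATF4, an activator of genes for amino acid supply and for the stress factor CHOP. In the kidney these pathways are known from injury of the tubule, whose cells make and move much protein.

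The promoters of the 2 branches carry known response elements, and 2 of them are shown whole because their genes, Hspa5 and Asns, are textbook targets of each branch and are among the results below. The sequences are RefSeq's for GRCm38.p6, from 250 bases before to 50 after the annotated start, written 5′ to 3′ on the gene's strand. Capitals mark the ER stress response element (ERSE, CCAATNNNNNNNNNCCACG) in Hspa5 and the C/EBP-ATF response element (CARE, TGATGNAA) in Asns.
Hspa5 (chr2:34771840-34772139, + strand): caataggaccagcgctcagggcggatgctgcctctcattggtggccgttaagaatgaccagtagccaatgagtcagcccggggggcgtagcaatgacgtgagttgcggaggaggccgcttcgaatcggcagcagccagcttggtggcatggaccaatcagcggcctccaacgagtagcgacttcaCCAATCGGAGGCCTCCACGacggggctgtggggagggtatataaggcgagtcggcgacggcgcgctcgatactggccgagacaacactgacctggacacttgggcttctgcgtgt
Asns (chr6:7693160-7693459, - strand): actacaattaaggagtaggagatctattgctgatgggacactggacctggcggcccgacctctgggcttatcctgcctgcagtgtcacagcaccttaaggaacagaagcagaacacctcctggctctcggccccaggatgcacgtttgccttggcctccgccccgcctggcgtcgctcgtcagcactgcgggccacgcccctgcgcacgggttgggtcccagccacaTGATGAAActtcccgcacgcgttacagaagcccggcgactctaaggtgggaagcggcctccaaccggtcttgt

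Of the 34 genes, 31 had a promoter in the RefSeq table, and Hyou1, Manf and Atf6 had none there. Each motif was searched on both strands. Members were counted as genes, with a match in any of their promoters, while the shares of all promoters count each promoter. Vldlr and Psat1 had more than 1 promoter, and not every Vldlr promoter held the CARE. ERSE was found in 7 of 15 ATF6 and XBP1 targets (Calr, Canx, Creld2, Dnajc3, Hsp90b1, Hspa5 and Pdia6), in 0 of 12 ATF4 targets and in 0 of 4 transducers, and it stood in 0.119% of all 32851 promoters of that length. ERSE-II (ATTGG and CCACG with 1 base between) was found in Dnajb11 and Herpud1, against 0.0365% of all promoters. CARE was found in 4 of 12 ATF4 targets (Asns, Chac1, Trib3 and Vldlr) and in 1 of 15 ATF6 and XBP1 targets (Herpud1), against 3.97% of all promoters. The unfolded protein response element TGACGTGG, of which 0.676% of all promoters hold a match, was found in 0 of the 31. The matches below, each with 12 bases on either side, are shown because Creld2 and Pdia6 rose in WT Gly and Chac1 rose too, while Dnajc3 and Herpud1 carry an element and did not pass the test. Where the capitals read CGTGG first or TTGCATCA, the element lies on the opposite strand.
Creld2 ERSE (chr15:88819508-88819550, + strand): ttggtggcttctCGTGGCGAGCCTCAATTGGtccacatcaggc
Pdia6 ERSE (chr12:17266479-17266521, + strand): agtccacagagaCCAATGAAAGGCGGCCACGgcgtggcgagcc
Dnajc3 ERSE (chr14:118937815-118937857, + strand): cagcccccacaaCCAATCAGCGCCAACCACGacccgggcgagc
Herpud1 ERSE-II (chr8:94386365-94386399, + strand): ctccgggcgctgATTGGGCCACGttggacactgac
Chac1 CARE (chr2:119351037-119351068, + strand): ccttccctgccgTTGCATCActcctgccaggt
A match of letters is a description of the window and not evidence that a factor binds there.

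The values are FPKM, which scale fragments by transcript length and library, so levels of different genes can be set side by side. Their sums ranged from 439749 to 539018 per library, and the depth behind them is unknown. All 34 genes passed the filter of at least 1 FPKM in at least 6 libraries, which 13020 features passed. Differences are on the log2(FPKM + 1) scale, which understates the change of genes at low levels, and were tested with limma and Benjamini-Hochberg adjustment over those features, two-sided, with a call at an adjusted p under 0.05. Nlrp3, the gene named for the knockout, was below the filter. Its mean was lower in KO Gly than in WT Gly, but KO saline was not below WT saline. It averaged 0.129 ± 0.00910 FPKM in KO Gly and 0.572 ± 0.224 FPKM in WT Gly (SD, n = 6 each, exact permutation p = 0.0022, the smallest that 6 against 6 libraries can give), and 0.0961 ± 0.0626 FPKM in KO saline and 0.0663 ± 0.0168 FPKM in WT saline (SD, n = 6 each, exact permutation p = 0.3). Libraries 1, 2, 3, 5 and 6 of KO saline lacked the Y-linked transcripts Ddx3y, Eif2s3y, Kdm5d and Uty (at most 0.0503 FPKM), which KO saline library 4 and all other groups expressed. The sex of the animals therefore cannot be told apart from genotype in KO saline against WT saline, or from glyoxylate in KO Gly against KO saline, and the interaction uses KO saline too. WT Gly libraries 1 and 5 stood apart in the share of FPKM in ribosomal protein genes, at 8.74% and 5.64%, against 4.68% to 4.92% in the other 4 libraries of the group. That share was 3.52% to 4.56% in KO Gly, 4.68% to 8.74% in WT Gly, 2.44% to 2.94% in KO saline and 2.28% to 2.67% in WT saline. The share in mitochondrial genes was 21.8% to 24.7% in KO Gly, 13.5% to 23.0% in WT Gly, 28.6% to 32.7% in KO saline and 26.9% to 34.3% in WT saline. Both shares moved with the groups, and their part in the results was not tested. In bulk tissue, fewer cells of a type and less RNA per cell cannot be told apart.

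Glyoxylate raised most of the 34 genes in wild-type kidneys. Against WT saline, 23 rose and 2 fell in WT Gly, where 63.5% of all tested features were called, 50.2% higher and 13.3% lower. The ATF6 and XBP1 targets rose in 13 of 17, the ATF4 targets rose in 7 of 12 and fell in 2, and the transducers rose in 3 of 5. The counts for the ATF4 targets and the transducers are near the shares of all features called. The median log2 difference was 0.86 for the ATF6 and XBP1 targets, 0.84 for the ATF4 targets and 0.84 for the transducers, against 0.26 for all features. The 6 WT Gly libraries lay wholly above the 6 WT saline libraries for 21 of the 34, where 31.3% of all features did so, and wholly below for Shmt2 and Sesn2, where 7.6% did. Scaling the libraries by median ratios, which brings the median of all features to 0.0036, left 20 higher and 8 lower, and quantile normalization left 22 and 6. The percentages of all features called, here and below, belong to the fit without scaling. Counts under other settings have no such percentage beside them.

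The same genes were mostly lower in the knockout under glyoxylate. In KO Gly against WT Gly, 18 were lower and 2 higher, where 29.8% of all features were called, 21.4% lower and 8.37% higher. The ATF6 and XBP1 targets were lower in 10 of 17, the ATF4 targets in 6 of 12 with 2 higher, and the transducers in 2 of 5. The medians were -0.44 for the ATF6 and XBP1 targets, -0.52 for the ATF4 targets and -0.28 for the transducers, against -0.063 for all features. All 6 KO Gly libraries lay below all 6 WT Gly libraries for Atf4, Manf, Phgdh and Ddit3, where 6.3% of all features did so, and above them for Sesn2, where 2.4% did. The split was 16 lower and 3 higher under median-ratio scaling, and 17 and 5 under quantile normalization. WT Gly enters both this comparison and WT Gly against WT saline, with opposite sign. Spread among its libraries therefore moves the 2 differences in opposite directions.

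**Figure D1:**
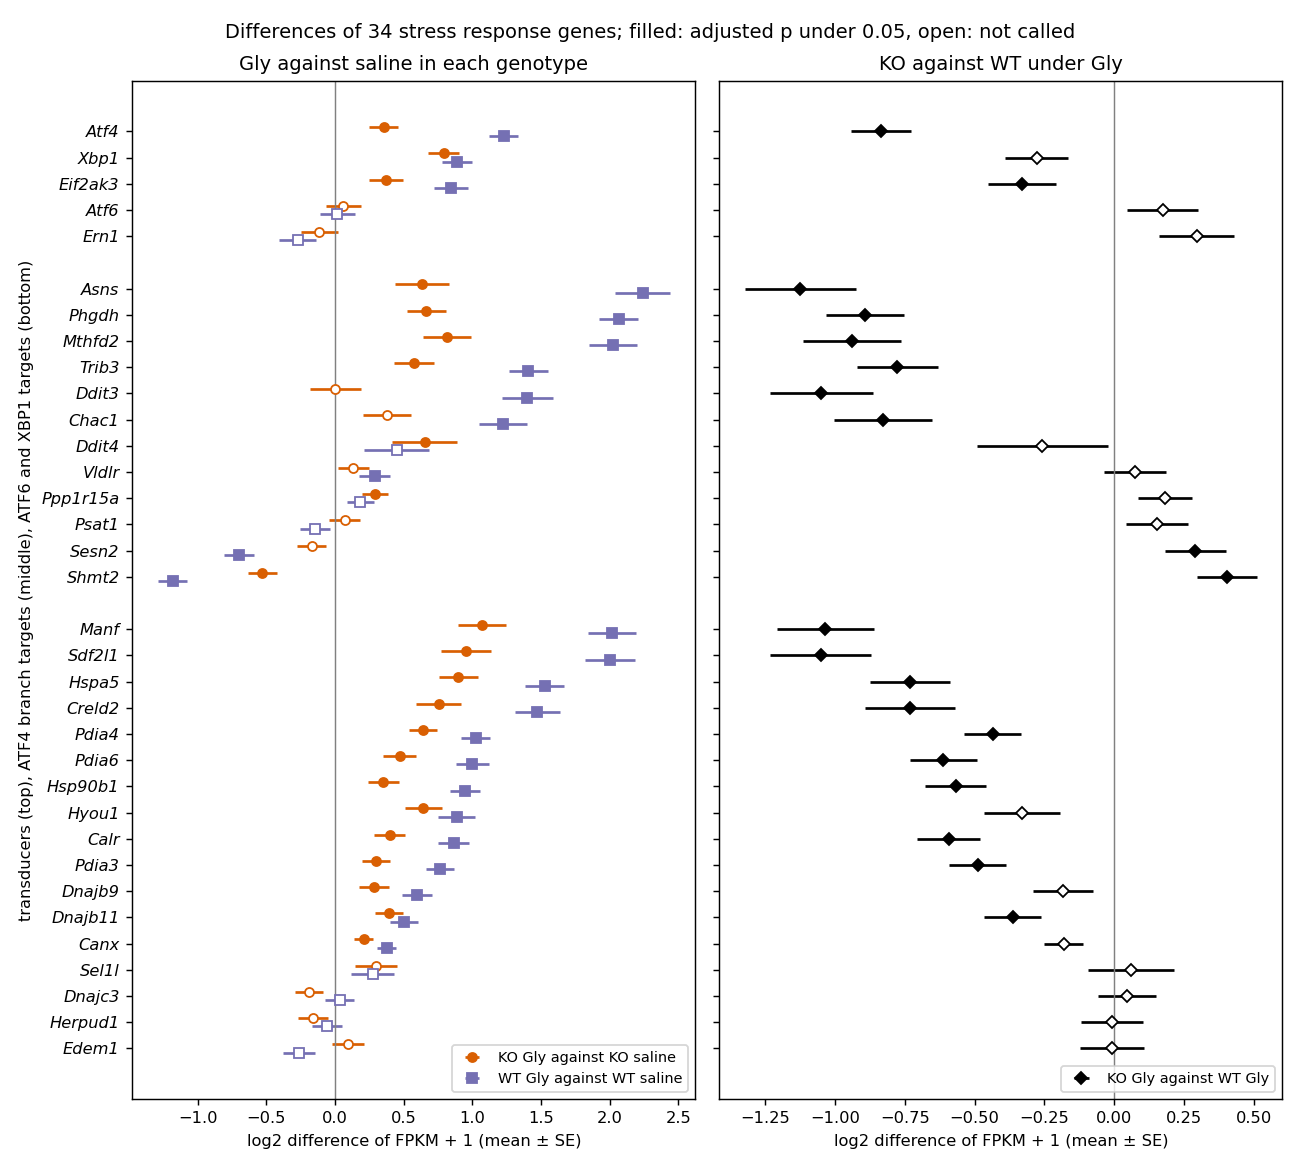
Log2 difference with its standard error for the 34 genes (rows, grouped as transducers, ATF4 targets and ATF6 and XBP1 targets), with Gly against saline in KO (circles) and in WT (squares) in the left panel and KO Gly against WT Gly in the right panel, where filled symbols were called and open symbols were not. Most genes right of 0 for WT in the left panel lie left of 0 in the right panel, as Hspa5 does at 1.53 and -0.73, and Shmt2 and Sesn2 lie on the opposite sides. Both panels use the WT Gly libraries with opposite sign, so part of this opposition is built in.

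Among the transducers, Atf4, the central factor of the integrated stress response, (ENSMUSG00000042406) had the largest difference in both comparisons. Its lowest, median and highest levels were 34.98, 44.2 and 47.3 FPKM in KO Gly, 61.1, 74.4 and 103 FPKM in WT Gly, 29.9, 32.1 and 38.7 FPKM in KO saline and 27.5, 32.97 and 34.997 FPKM in WT saline. No KO Gly library reached the lowest WT Gly library, and the lowest KO Gly library was level with the top of WT saline. Atf4 rose by 1.23 ± 0.11 log2 units in WT Gly against WT saline (SE, adjusted p = 6.40e-10) and was lower by -0.84 ± 0.11 in KO Gly against WT Gly (SE, adjusted p = 7.46e-06).

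Xbp1, whose spliced message encodes the chaperone activator, had levels of 58.1, 70.6 and 77.8 FPKM (lowest, median and highest) in KO Gly, 74.2, 84.5 and 91.6 FPKM in WT Gly, 34.2, 39.9 and 45.4 FPKM in KO saline and 34.7, 41.9 and 59.2 FPKM in WT saline. The KO Gly and WT Gly libraries overlapped, while each Gly group lay above its own saline group. Xbp1 rose by 0.89 ± 0.11 in WT Gly against WT saline (SE, adjusted p = 2.27e-07), and KO Gly against WT Gly was at -0.28 ± 0.11 and did not pass (SE, adjusted p = 0.0607). FPKM per gene do not separate the spliced from the unspliced message.

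Eif2ak3, the gene of PERK, had 10.7, 11.97 and 12.3 FPKM in KO Gly, 8.94, 15.7 and 20.1 FPKM in WT Gly, 7.59, 8.85 and 10.1 FPKM in KO saline and 7.23, 8.04 and 8.69 FPKM in WT saline. The lowest WT Gly value was that of library 1, and WT Gly spanned all KO Gly libraries. The gene rose by 0.84 ± 0.12 in WT Gly against WT saline (SE, adjusted p = 2.11e-06). KO Gly against WT Gly passed narrowly at -0.33 ± 0.12 (SE, adjusted p = 0.0448) and was at -0.54 without WT Gly libraries 1 and 5. It no longer passed in a fit on the 12 Gly libraries alone (adjusted p = 0.154). Nor did it pass under median-ratio scaling (-0.26, adjusted p = 0.0676) or quantile normalization (-0.27, adjusted p = 0.0556). Ern1, which encodes the sensor IRE1, had 3.90, 4.48 and 5.20 FPKM in KO Gly, 1.59, 4.11 and 4.51 FPKM in WT Gly, 3.69, 4.94 and 5.79 FPKM in KO saline and 3.92, 4.39 and 4.72 FPKM in WT saline, and these groups overlapped. It passed in neither comparison (-0.27 ± 0.13, SE, adjusted p = 0.0814 in WT Gly against WT saline). Atf6, the gene of the sensor and factor itself, was at 0.017 ± 0.13 in WT Gly against WT saline (SE, adjusted p = 0.915), with a WT Gly range of 4.64 to 10.6 FPKM. Under median-ratio scaling Atf6 and Ern1 were called lower in WT Gly against WT saline, at -0.26 and -0.52, and Ern1 was called higher in KO Gly against WT Gly, at 0.34 (adjusted p = 0.0297). Under quantile normalization Ern1 was at 0.36 in KO Gly against WT Gly (adjusted p = 0.00914) and Atf6 at 0.23 (adjusted p = 0.0482). Without WT Gly libraries 1 and 5, Atf6 was called higher in WT Gly against WT saline, at 0.27.

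On the log2(FPKM + 1) scale, Asns, Phgdh and Mthfd2 had the largest differences of the ATF4 targets in WT Gly against WT saline. Phgdh, the first enzyme of serine synthesis, had lowest, median and highest levels of 12.3, 14.8 and 21.1 FPKM in KO Gly, 23.6, 29.0 and 40.9 FPKM in WT Gly, 7.65, 8.89 and 13.3 FPKM in KO saline and 4.71, 6.45 and 7.20 FPKM in WT saline. KO Gly, WT Gly and WT saline did not overlap with one another, and KO saline lay above WT saline. Phgdh rose by 2.07 ± 0.14 in WT Gly against WT saline (SE, adjusted p = 1.07e-11) and was lower by -0.89 ± 0.14 in KO Gly against WT Gly (SE, adjusted p = 6.45e-05).

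Asns, which makes asparagine, had 2.62, 3.78 and 8.57 FPKM in KO Gly, 7.52, 11.2 and 16.1 FPKM in WT Gly, 2.20, 2.45 and 3.30 FPKM in KO saline and 1.02, 1.55 and 2.12 FPKM in WT saline. KO Gly and WT Gly overlapped at one edge, and both saline groups lay below all of WT Gly. Asns rose by 2.24 ± 0.20 in WT Gly against WT saline (SE, adjusted p = 9.16e-10) and was lower by -1.12 ± 0.20 in KO Gly against WT Gly (SE, adjusted p = 0.000214). The former was the largest difference among the 34 in that comparison on the log2(FPKM + 1) scale, which understates genes at low levels such as Trib3. Mthfd2, an enzyme of mitochondrial one-carbon metabolism, had 2.698, 3.43 and 6.75 FPKM in KO Gly, 5.97, 8.63 and 12.7 FPKM in WT Gly, 1.26, 1.75 and 2.62 FPKM in KO saline and 1.10, 1.40 and 1.56 FPKM in WT saline. It rose by 2.02 ± 0.17 in WT Gly against WT saline (SE, adjusted p = 6.24e-10) and was lower by -0.94 ± 0.17 in KO Gly against WT Gly (SE, adjusted p = 0.000347). KO Gly and WT Gly overlapped at one edge for this gene as well.

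Ddit3 (ENSMUSG00000025408) encodes CHOP, a transcription factor linked to death of stressed cells. It had 8.06, 9.18 and 10.5 FPKM in KO Gly, 13.4, 16.8 and 43.6 FPKM in WT Gly, 7.86, 9.13 and 10.5 FPKM in KO saline and 5.38, 7.06 and 8.30 FPKM in WT saline. KO Gly overlapped KO saline over nearly its whole range and stayed below every WT Gly library, of which library 1 was the highest. Ddit3 rose by 1.40 ± 0.18 in WT Gly against WT saline (SE, adjusted p = 4.93e-07) and was lower by -1.05 ± 0.18 in KO Gly against WT Gly (SE, adjusted p = 0.000209), or by -0.79 ± 0.13 without WT Gly libraries 1 and 5 (SE, adjusted p = 0.00013).

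Trib3, a pseudokinase induced through ATF4 and CHOP, was expressed at a low level, with 0.556, 0.894 and 1.61 FPKM in KO Gly, 1.59, 2.10 and 3.86 FPKM in WT Gly, 0.152, 0.244 and 0.642 FPKM in KO saline and 0.0769, 0.263 and 0.392 FPKM in WT saline. It rose by 1.41 ± 0.14 in WT Gly against WT saline (SE, adjusted p = 9.54e-09) and was lower by -0.78 ± 0.14 in KO Gly against WT Gly (SE, adjusted p = 0.000343). Chac1, which breaks down glutathione, was similar in level, at 0.863 ± 0.415 FPKM in KO Gly, 2.41 ± 1.26 FPKM in WT Gly, 0.418 ± 0.248 FPKM in KO saline and 0.391 ± 0.118 FPKM in WT saline (SD, n = 6 each). It rose by 1.22 ± 0.17 in WT Gly against WT saline (SE, adjusted p = 1.55e-06) and was lower by -0.83 ± 0.17 in KO Gly against WT Gly (SE, adjusted p = 0.00106).

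Shmt2 and Sesn2 moved the other way. Shmt2, the mitochondrial serine hydroxymethyltransferase, had 43.2, 48.1 and 54.8 FPKM in KO Gly, 30.3, 35.7 and 45.2 FPKM in WT Gly, 58.3, 67.4 and 87.5 FPKM in KO saline and 62.3, 84.9 and 95.2 FPKM in WT saline. Both Gly groups lay below both saline groups, and KO Gly overlapped WT Gly at one edge. Shmt2 fell by 1.18 ± 0.11 log2 units in WT Gly against WT saline (SE, adjusted p = 1.18e-09) and was higher by 0.40 ± 0.11 in KO Gly against WT Gly (SE, adjusted p = 0.00608). Sesn2, a stress-induced regulator of mTORC1, averaged 17.96 ± 0.871 FPKM in KO Gly, 14.6 ± 1.70 FPKM in WT Gly, 20.6 ± 3.54 FPKM in KO saline and 24.5 ± 4.82 FPKM in WT saline (SD, n = 6 each). It fell by 0.70 ± 0.11 in WT Gly against WT saline (SE, adjusted p = 5.04e-06), and its rise of 0.29 ± 0.11 in KO Gly against WT Gly (SE, adjusted p = 0.0459) was lost without WT Gly library 1 (adjusted p = 0.0953) and in several of the other fits.

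The remaining ATF4 targets differed less in wild type. Vldlr, a lipoprotein receptor, rose by 0.29 ± 0.11 in WT Gly against WT saline (SE, adjusted p = 0.0264), and was at 0.0026 under median-ratio scaling. Psat1, which follows Phgdh in serine synthesis, averaged 15.5 ± 2.14 FPKM in KO Gly, 13.9 ± 2.24 FPKM in WT Gly, 14.8 ± 2.79 FPKM in KO saline and 15.4 ± 1.66 FPKM in WT saline (SD, n = 6 each), and passed in no comparison. Under median-ratio scaling and quantile normalization Psat1 was called lower in WT Gly against WT saline, at -0.43 (adjusted p = 0.00602) and -0.45 (adjusted p = 0.00331). Ddit4, an inhibitor of mTORC1, was at 0.45 ± 0.24 (SE, adjusted p = 0.101) and Ppp1r15a, which encodes the eIF2 phosphatase subunit GADD34, at 0.19 ± 0.10 (SE, adjusted p = 0.097) in WT Gly against WT saline. Neither passed in KO Gly against WT Gly, but under quantile normalization Ppp1r15a was called higher there, at 0.26 (adjusted p = 0.0390).

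**Figure D2:**
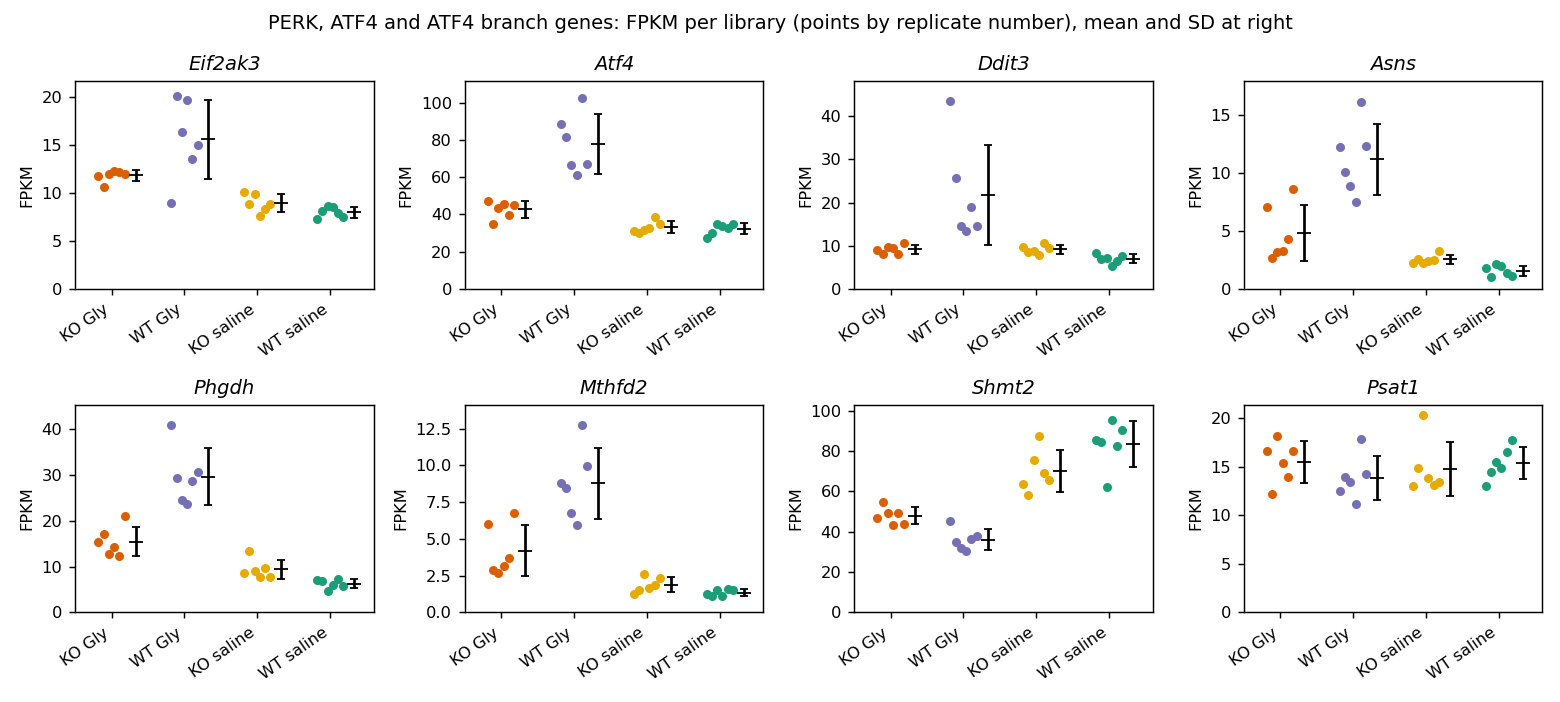
FPKM per library of Atf4 and ATF4 target genes, 1 point per library, with the mean and SD of 6 libraries at the right of each group. WT Gly stands highest for Atf4, Phgdh, Asns and Ddit3, while Shmt2 is lowest in WT Gly.

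The ER chaperone branch was led by Manf, Sdf2l1 and Hspa5. Manf, a secreted and ER-resident survival factor, had lowest, median and highest levels of 19.5, 21.3 and 36.4 FPKM in KO Gly, 39.6, 46.6 and 87.9 FPKM in WT Gly, 9.40, 11.0 and 13.03 FPKM in KO saline and 9.36, 11.55 and 15.4 FPKM in WT saline. KO Gly stood clear of both WT Gly above and both saline groups below. Manf rose by 2.02 ± 0.17 in WT Gly against WT saline (SE, adjusted p = 5.60e-10) and was lower by -1.03 ± 0.17 in KO Gly against WT Gly (SE, adjusted p = 0.00013).

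Sdf2l1, a partner of BiP in the chaperone complex of the ER, had 8.13, 10.9 and 19.8 FPKM in KO Gly, 19.4, 22.1 and 40.3 FPKM in WT Gly, 4.16, 5.61 and 6.97 FPKM in KO saline and 4.65, 5.60 and 6.08 FPKM in WT saline. A single KO Gly library, number 6, passed the lowest WT Gly library. Sdf2l1 rose by 2.003 ± 0.18 in WT Gly against WT saline (SE, adjusted p = 1.44e-09) and was lower by -1.05 ± 0.18 in KO Gly against WT Gly (SE, adjusted p = 0.000183). Hspa5 (ENSMUSG00000026864), which encodes BiP, the main ER chaperone of the Hsp70 family, had 141, 179.6 and 270.4 FPKM in KO Gly, 258, 291 and 395 FPKM in WT Gly, 94.1, 98.5 and 108 FPKM in KO saline and 80.2, 108 and 126 FPKM in WT saline. Both Gly groups lay above both saline groups, and they overlapped each other. Hspa5 rose by 1.53 ± 0.14 in WT Gly against WT saline (SE, adjusted p = 2.19e-09) and was lower by -0.73 ± 0.14 in KO Gly against WT Gly (SE, adjusted p = 0.000553).

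Calr, which encodes the calcium-binding lectin chaperone calreticulin, had 233, 279 and 377 FPKM in KO Gly, 366, 410.4 and 610.5 FPKM in WT Gly, 198, 221 and 241 FPKM in KO saline and 218, 244 and 256 FPKM in WT saline. Calr had the highest WT Gly mean of the 34, and its KO Gly and WT Gly ranges overlapped at one edge. It rose by 0.86 ± 0.11 in WT Gly against WT saline (SE, adjusted p = 3.98e-07) and was lower by -0.59 ± 0.11 in KO Gly against WT Gly (SE, adjusted p = 0.000395). Hsp90b1, which encodes the chaperone GRP94, had 135, 168 and 233 FPKM in KO Gly, 216, 238 and 323 FPKM in WT Gly, 124, 135 and 139.5 FPKM in KO saline and 115, 135 and 139 FPKM in WT saline. It rose by 0.95 ± 0.11 in WT Gly against WT saline (SE, adjusted p = 7.93e-08) and was lower by -0.57 ± 0.11 in KO Gly against WT Gly (SE, adjusted p = 0.000526). The lowest KO Gly library of Hsp90b1 lay within the saline range.

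Pdia4, a disulfide isomerase of the ER, had 42.1, 46.8 and 66.5 FPKM in KO Gly, 52.6, 64.8 and 89.9 FPKM in WT Gly, 28.9, 30.5 and 32.99 FPKM in KO saline and 29.5, 32.0 and 34.4 FPKM in WT saline. It rose by 1.02 ± 0.10 in WT Gly against WT saline (SE, adjusted p = 7.55e-09) and was lower by -0.44 ± 0.10 in KO Gly against WT Gly (SE, adjusted p = 0.00281). The disulfide isomerase genes Pdia6 and Pdia3 followed, with 1.00 and 0.76 in WT Gly against WT saline and -0.61 and -0.49 in KO Gly against WT Gly, each called. Creld2, an ER protein secreted on stress, was at 1.47 and -0.73 in these comparisons, and the BiP cochaperone gene Dnajb11 at 0.51 and -0.36, all called. Hyou1 (0.89), Dnajb9 (0.60) and Canx (0.38), an Hsp110 relative, a cochaperone of BiP and a lectin chaperone, also rose in WT Gly, but in KO Gly against WT Gly they were at -0.33, -0.18 and -0.18 and did not pass. Without WT Gly libraries 1 and 5, Hyou1 and Canx passed there, at -0.48 and -0.26. Under median-ratio scaling Dnajb11 and Canx no longer passed in WT Gly against WT saline (0.20 and 0.070), and Dnajb11 no longer passed in KO Gly against WT Gly (adjusted p = 0.0514).

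Herpud1, Sel1l, Edem1 and Dnajc3 passed in neither comparison. Herpud1, an organizer of ER-associated degradation, averaged 179 ± 14.5 FPKM in KO Gly, 181 ± 24.1 FPKM in WT Gly, 201 ± 31.1 FPKM in KO saline and 189 ± 28.5 FPKM in WT saline (SD, n = 6 each). Sel1l, a subunit of the degradation ligase, was at 0.27 ± 0.15 (SE, adjusted p = 0.125), Edem1, which sorts misfolded glycoproteins, at -0.26 ± 0.11 (SE, adjusted p = 0.0501), and Dnajc3, an inhibitor of PERK, at 0.033 ± 0.10 (SE, adjusted p = 0.792) in WT Gly against WT saline. Sel1l was lowest in WT Gly library 1, at 9.36 FPKM. Without WT Gly libraries 1 and 5, Sel1l was called higher in WT Gly against WT saline (0.57) and lower in KO Gly against WT Gly (-0.23). Under median-ratio scaling, Herpud1, Edem1 and Dnajc3 were called lower in WT Gly against WT saline, at -0.37, -0.55 and -0.27.

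**Figure D3:**
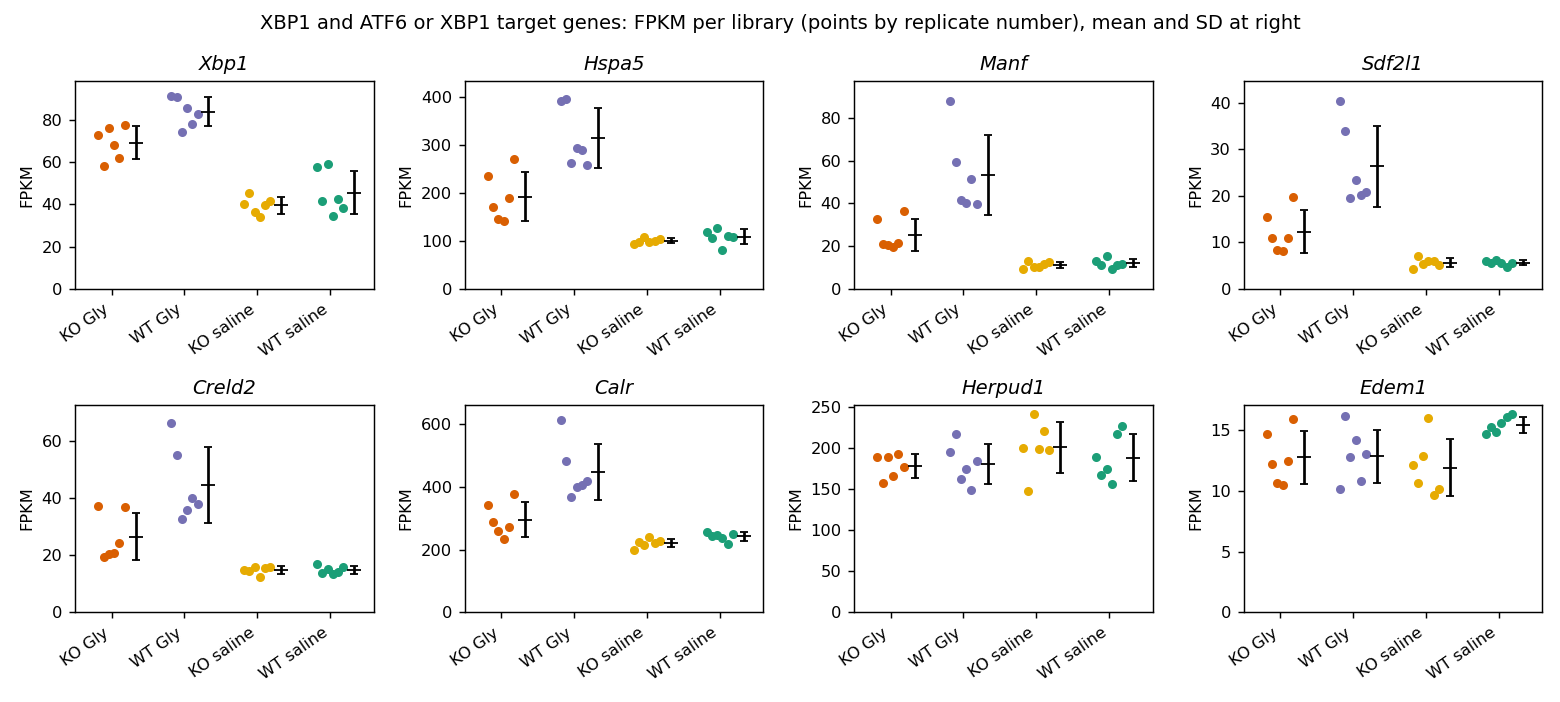
FPKM per library of Xbp1 and of 7 ATF6 or XBP1 target genes, 1 point per library, with the mean and SD of 6 libraries at the right of each group. Hspa5, Manf, Sdf2l1, Creld2 and Calr are highest in WT Gly with KO Gly between it and the saline groups, whereas Herpud1 and Edem1 show no such order.

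Most of the 34 genes were also higher in KO Gly than in KO saline, a comparison in which sex and glyoxylate cannot be told apart. In KO Gly against KO saline, 22 of the 34 were higher and 1 lower, where 29.5% of all features were called, 23.7% higher and 5.72% lower. The medians were 0.39 for the ATF6 and XBP1 targets, 0.34 for the ATF4 targets and 0.36 for the transducers, against 0.12 for all features. Manf rose by 1.07 ± 0.17 (SE, adjusted p = 4.96e-05), Hspa5 by 0.90 ± 0.14 (SE, adjusted p = 4.10e-05) and Xbp1 by 0.79 ± 0.11 (SE, adjusted p = 8.78e-06), while Shmt2 fell by 0.53 ± 0.11 (SE, adjusted p = 0.000544). Ddit3 was at 0.0017 ± 0.18 (SE, adjusted p = 0.996). Ddit4 and Ppp1r15a passed at 0.65 and 0.29. Under median-ratio scaling they did not, at 0.51 (adjusted p = 0.123) and 0.16 (adjusted p = 0.233), nor under quantile normalization, at 0.53 (adjusted p = 0.0971) and 0.15 (adjusted p = 0.261), and the Ddit4 call was also lost without most single libraries of these groups. Atf4 (0.21 and 0.22) and Asns (0.52 and 0.47) no longer passed under these scalings either. Median-ratio scaling left 10 genes higher and 4 lower, quantile normalization 14 and 3, and without the 5 KO saline libraries that lack Y-linked transcripts, which leaves 1 library of that group, 2 were higher (Xbp1 and Phgdh) and 1 lower (Shmt2). In that fit Manf was at 1.18 (adjusted p = 0.0532) and Hspa5 at 0.94 (adjusted p = 0.0687), and Ddit4 was at -0.22.

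KO Gly could also be set against WT saline, where every library expressed Y-linked transcripts. These 2 groups differ in both genotype and glyoxylate, which cannot be told apart here. Here 20 of the 34 were higher and 2 lower, where 45.6% of all features were called, 38.9% higher and 6.72% lower. The KO Gly libraries lay wholly above those of WT saline for 13 genes, where 28% of all features did, and wholly below for Shmt2 and Sesn2, where 3.33% did. Phgdh was at 1.17 ± 0.14 (SE, adjusted p = 5.39e-07), Asns at 1.12 ± 0.20 (SE, adjusted p = 8.61e-05) and Mthfd2 at 1.08 ± 0.17 (SE, adjusted p = 2.80e-05). Manf was at 0.98 ± 0.17 (SE, adjusted p = 7.77e-05), Hspa5 at 0.80 ± 0.14 (SE, adjusted p = 9.51e-05) and Xbp1 at 0.61 ± 0.11 (SE, adjusted p = 0.000114). Atf4 passed at 0.39 ± 0.11 (SE, adjusted p = 0.00456), but not under median-ratio scaling (0.16, adjusted p = 0.423) or quantile normalization (0.23, adjusted p = 0.0956). Ddit3 (0.35 ± 0.18, SE, adjusted p = 0.122) and Calr (0.27 ± 0.11, SE, adjusted p = 0.0521) did not pass. Shmt2 and Sesn2 were lower, at -0.78 and -0.41. Under median-ratio scaling 11 were higher and 4 lower. This comparison shares WT saline with WT Gly against WT saline, and KO Gly with KO Gly against WT Gly.

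Between the genotypes given saline, 2 of the 34 were called, a count that was 13 with array weights and 6 with only those groups in the fit. In KO saline against WT saline, Phgdh was higher at 0.51 ± 0.14 (SE, adjusted p = 0.0217) and Edem1 lower at -0.37 ± 0.11 (SE, adjusted p = 0.0419), where 10.6% of all features were called, 6.92% higher and 3.67% lower. Asns, Phgdh and Dnajc3 had all 6 KO saline libraries above all 6 WT saline libraries, where 3.94% of all features did, and for 0 of the 34 did they lie wholly below, where 0.868% did. Median-ratio scaling left 0 genes higher and 2 lower. Single libraries moved the count: it was 0 without KO saline library 2 (limma, 6 at an unadjusted p under 0.05), 4 without KO saline library 4, 3 without WT Gly library 1 or 2, and 1 without any other single KO saline or WT saline library or KO Gly library 5. The 1 gene was Phgdh, except without WT saline library 3, where it was Shmt2 and both Phgdh and Edem1 no longer passed. Neither call remained without the 5 libraries that lack Y-linked transcripts.

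The interaction, which is the glyoxylate difference in knockout minus that in wild type, was called for 18 of the 34, 16 negative and 2 positive, where 26.6% of all features were called, 20.3% negative and 6.28% positive. It was -1.61 ± 0.28 for Asns (SE, adjusted p = 0.000296), -1.40 ± 0.20 for Phgdh (SE, adjusted p = 4.60e-05) and -1.40 ± 0.26 for Ddit3 (SE, adjusted p = 0.000526), and it was -0.87 ± 0.15 for Atf4 (SE, adjusted p = 0.000276). Manf was at -0.95 ± 0.24 (SE, adjusted p = 0.00664), Hspa5 at -0.63 ± 0.20 (SE, adjusted p = 0.0238) and Xbp1 at -0.10 ± 0.16 (SE, adjusted p = 0.687). The positive values were those of Shmt2 and Sesn2, at 0.65 and 0.53. After median-ratio scaling 9 were negative and 3 positive, and the negative calls among ATF6 and XBP1 targets were 2 (Sdf2l1 and Manf), against 8 without it. Hspa5 was then at -0.47 (adjusted p = 0.119), and Creld2, Hsp90b1, Pdia6, Pdia3, Calr and Eif2ak3 did not pass either. Under quantile normalization Hspa5 (-0.51, adjusted p = 0.0713), Calr, Eif2ak3 and Chac1 did not pass. Without the 5 libraries lacking Y-linked transcripts 0 of the 34 were called by limma, and 12 had an unadjusted p under 0.05. In that fit Asns was at -1.56, Ddit3 at -1.21, Phgdh at -1.16, Atf4 at -0.86, Manf at -0.84 and Hspa5 at -0.58, while Shmt2 was at 0.32 and Sesn2 at 0.15.

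**Figure D4:**
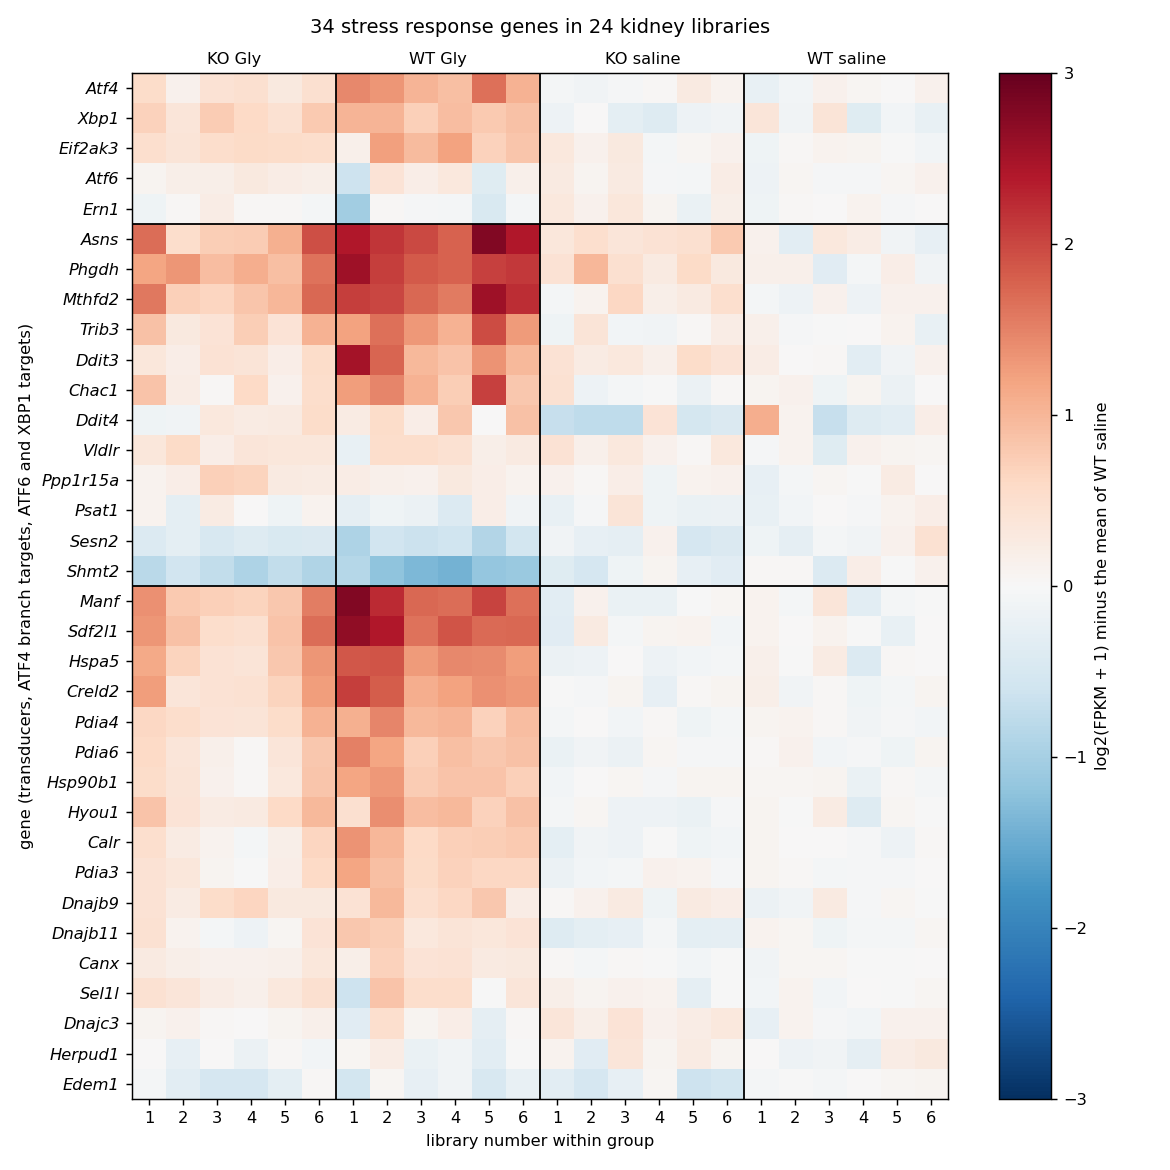
Log2(FPKM + 1) of each gene in each library minus the mean of WT saline, red for higher and blue for lower, with genes in rows by role and the 24 libraries in columns by group. The red block of ATF4 and chaperone genes is deepest in WT Gly and paler in KO Gly, and Shmt2 and Sesn2 are blue in both. Within KO Gly, libraries 1 and 6 were the 2 highest for 14 of the 17 ATF6 and XBP1 targets. They were the 2 highest for 3 of the 12 ATF4 targets, and for 12% of all 13020 features.

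Within KO Gly, most ATF6 and XBP1 targets were highest in the 2 libraries that were highest for the injury marker Havcr1. Havcr1, which encodes the injury marker KIM-1 of the tubule, was at 157, 46.6, 43.8, 39.1, 107 and 207 FPKM in KO Gly libraries 1 to 6 and at 385, 481, 343, 337, 398 and 373 FPKM in WT Gly libraries 1 to 6. KO Gly libraries 1 and 6 were thus the highest of their group. These same 2 libraries were the 2 highest of KO Gly for 14 of the 17 ATF6 and XBP1 targets, for 3 of the 12 ATF4 targets (Asns, Mthfd2 and Trib3) and for 0 of the 5 transducers, where this held for 12% of all 13020 features. The ATF6 and XBP1 targets for which it did not hold were Dnajb9, Herpud1 and Dnajc3. Hspa5 was at 235 and 270.4 FPKM in KO Gly libraries 1 and 6, against 141 to 188 in the other 4. Atf4 was highest in KO Gly library 1, at 47.3 FPKM, and library 4 followed at 45.5 FPKM. This is a description of 6 libraries, which all these genes share, and no test was made.

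**Figure D5:**
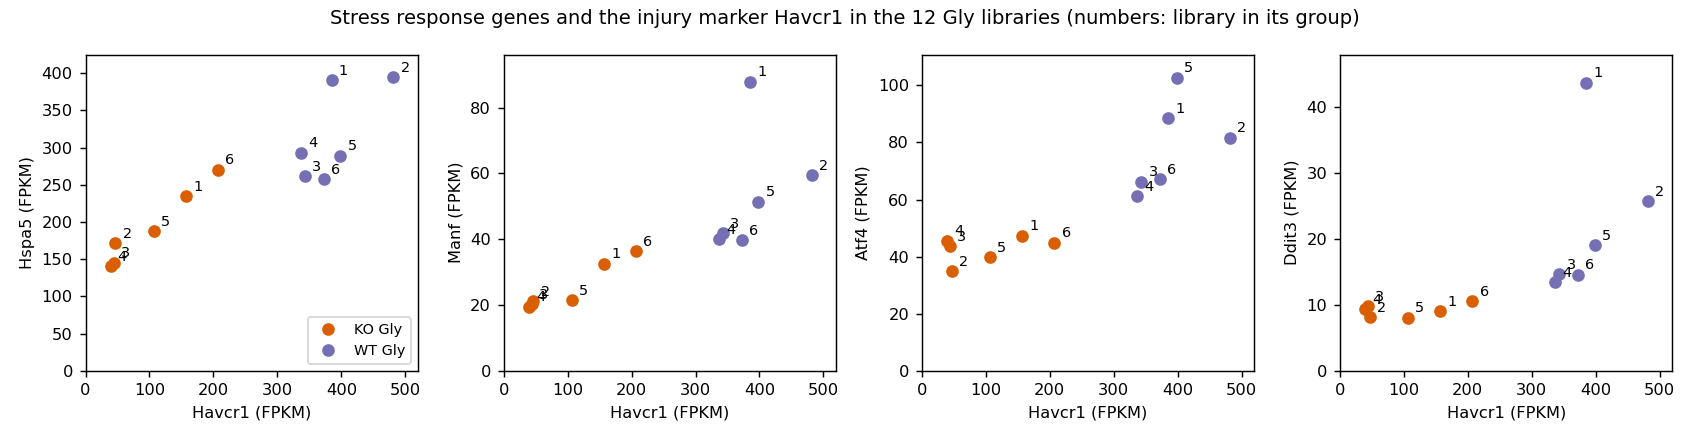
FPKM of Hspa5, Manf, Atf4 and Ddit3 (vertical axes) against FPKM of Havcr1 (horizontal axis) in the 6 KO Gly and 6 WT Gly libraries, with replicate numbers beside the points. KO Gly libraries 1 and 6 lie highest for Hspa5 and Manf within their group, while Ddit3 stays between 8.06 and 10.5 FPKM in all of KO Gly.

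Other genes of the pathways were counted in the same fit, in which 50.2% of all features were higher and 13.3% lower in WT Gly against WT saline, and 8.37% were higher and 21.4% lower in KO Gly against WT Gly. Of 12 further kinases and factors of the integrated stress response, 8 rose in WT Gly against WT saline and 6 were lower in KO Gly against WT Gly. They included Atf3, a stress transcription factor, at 3.18 and -1.62 in these comparisons, and Atf5, a relative of ATF4, at 1.52 and -0.66. Of 13 tested further ATF4 targets of transport and metabolism, 12 rose and 1 fell in WT Gly against WT saline, and 6 were lower and 1 higher in KO Gly against WT Gly. Gdf15, a stress hormone, was at 2.81 and -1.47, and Stc2, which encodes stanniocalcin 2, at 2.14 and -0.88. Of 13 aminoacyl-tRNA synthetase genes, which charge tRNAs for translation, 12 rose and 1 fell in WT Gly against WT saline, and 10 were lower in KO Gly against WT Gly, among them Gars at 0.84 and -0.42 and Tars at 0.85 and -0.42.

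Of 13 further ER folding genes, 10 rose in WT Gly against WT saline and 2 were lower in KO Gly against WT Gly, with Pdia5 at 1.03 and -0.42 and Ppib, a prolyl isomerase gene, at 0.78 and -0.37. Those 2 of 13 are a share near the 21.4% of all features called lower there, as the 7 of 13 below are near the 50.2% called higher. Of 19 genes of ER translocation and the secretory pathway, 17 rose and 12 were lower, with Kdelr3, a receptor that retrieves ER proteins, at 2.22 and -1.10. Of 13 further genes of ER-associated degradation, 7 rose in WT Gly against WT saline, and 6 were lower and 1 higher in KO Gly against WT Gly, with Derl2 at 0.75 and -0.47. Of 8 tested proteases and related factors of the response, 2 rose and 1 fell in WT Gly against WT saline, and 2 were lower in KO Gly against WT Gly, with Traf2, an adaptor of IRE1, at 1.03 and -0.49.

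Cells other than tubule cells also express these genes, and their markers moved with the groups. All 10 macrophage markers rose in WT Gly against WT saline and all 10 were lower in KO Gly against WT Gly, where 50.2% of all features were called higher in the first comparison and 21.4% lower in the second. Their summed level was 158 to 471 FPKM in KO Gly, 306 to 861 FPKM in WT Gly, 42.3 to 88.6 FPKM in KO saline and 40.4 to 69.7 FPKM in WT saline. All 7 fibroblast markers rose in WT Gly against WT saline and 4 were lower in KO Gly against WT Gly, with summed levels of 95.3 to 253 FPKM in KO Gly, 121 to 321 FPKM in WT Gly, 27.0 to 35.2 FPKM in KO saline and 18.5 to 29.9 FPKM in WT saline. Plasma cells, which are rich in ER chaperones, had 2 of 9 markers above the filter. The summed level of those 9 was 8.48 to 13.1 FPKM in KO Gly, 13.9 to 22.3 FPKM in WT Gly, 5.91 to 9.78 FPKM in KO saline and 4.62 to 10.4 FPKM in WT saline, of which Sdc1, also an epithelial gene, made up the most, and Ms4a1 and Tnfrsf17 stayed near 0. Of 5 pancreas acinar genes, Prss2, Cpa1 and Pnlip were at 0 in all libraries, and 1 of the 5 passed the filter. The summed level of the 5 was 33.8 to 84.6 FPKM in KO Gly and 37.1 to 77.3 FPKM in WT Gly. It was 54.9 to 74.5 FPKM in KO saline and 47.9 to 65.6 FPKM in WT saline. The part of macrophages, fibroblasts and plasma cells in the results for the 34 genes was not tested. All 10 genes that define kidney tissue were present in each group. Their summed level, as lowest, median and highest, was 5048, 8924 and 16663 FPKM in KO Gly, 5885, 8316 and 11207 FPKM in WT Gly, 11116, 12261 and 24292 FPKM in KO saline and 21162, 25066 and 25898 FPKM in WT saline. Of the 10, 5 were lower and 1 higher in WT Gly against WT saline, and 2 were higher in KO Gly against WT Gly. In KO saline against WT saline 0 of the 10 were called, and their median log2 difference was 0.18. The sum is weighted toward genes at high levels. The part of these differences in the results for the 34 genes was not tested.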

How the data were processed

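RNA libraries were made with the Illumina TruSeq RNA kit from Trizol extracts of kidney, per the labels' protocols. FPKM per feature and library, deposited by the authors, were read from 1 table. Bowtie 0.12.2 and the builds mm8 and mm9 are named per the submitters' processing notes. How FPKM were computed, on which annotation and with what strand setting is not given in the sources used here. Read counts could not be recovered. For any pair of libraries, 1 ratio (in steps of 0.01 log2) was held in common by no more than 2.55% of features with a mean below 0.05 FPKM, so the depth is unknown and no interval that needs it is given.

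A feature was tested if 6 or more of the 24 libraries had 1 FPKM or more. The test was limma 3.58.1 (intensity trend, R 4.3.3) on log2(FPKM + 1), with 1 mean per group, a spread shared by all 24 libraries and Benjamini-Hochberg adjustment over 13020 features. The script was tested on simulated data. Nlrp3 was compared by exact permutation tests, two-sided. The Ensembl identifiers of the table were used as given. A second row with the symbol Ddit3 was at 0 in all libraries and was left out. Promoters were RefSeq's, matched by symbol, and no coordinate of the authors' builds is used. No 2 libraries held identical values, and correlations between libraries ranged from 0.945 to 0.996. Library numbers were not used to pair samples. Levels were given as lowest, median and highest for the members with the 4 smallest p of each role in WT Gly against WT saline and in KO Gly against WT Gly, with up to 3 genes by the same rule from each other list. The other settings were a pseudocount of 0.1, filters, scalings, array weights, a replicate block, fits on fewer groups and left-out libraries. Members and lists were chosen with earlier results of these data known, and leaving out WT Gly libraries 1 and 5 was chosen after seeing the data. 1 listed marker gene is not reported here.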

Additional observations from a re-analysis of the deposited data

Results flagged for a closer look

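Within the groups of 6 libraries, 9 of 136 gene and group combinations held a library whose gap to its nearest neighbour was above Dixon's 95% critical value for a share of the group's range, where chance flags about 1 in 20. Asns was at 3.30 FPKM in KO saline library 6, Phgdh at 13.3 in KO saline library 2, Psat1 at 20.3 in KO saline library 3 and Chac1 at 0.899 in KO saline library 1. Ddit4 was at 20.9 FPKM in KO saline library 4, the one KO saline library with Y-linked transcripts, and at 34.05 in WT saline library 1. Vldlr was at 8.21 FPKM in WT saline library 3, Pdia4 at 66.5 in KO Gly library 6 and Eif2ak3 at 10.7 in KO Gly library 2.

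The interaction was called for 18 of the 34 genes, where 26.6% of all features were called, 20.3% negative and 6.28% positive. Sex cannot be told apart from glyoxylate in its knockout part. Among ATF4 targets and Atf4 itself, the log2 values were Asns -1.61, Phgdh -1.40, Ddit3 -1.40, Mthfd2 -1.21, Atf4 -0.87, Chac1 -0.84, Trib3 -0.83, Sesn2 0.53 and Shmt2 0.65. Among the chaperone genes they were Sdf2l1 -1.05, Manf -0.95, Creld2 -0.72, Hspa5 -0.63, Hsp90b1 -0.59, Pdia6 -0.53, Pdia3 -0.47 and Calr -0.46, and Eif2ak3 was at -0.47. None of the 18 was called without the 5 KO saline libraries that lack Y-linked transcripts, a fit that leaves 1 KO saline library. There Asns was at -1.56, Phgdh at -1.16, Atf4 at -0.86, Manf at -0.84, Hspa5 at -0.58, Shmt2 at 0.32 and Sesn2 at 0.15. Under median-ratio scaling the calls of Creld2, Hspa5 (-0.47, adjusted p = 0.119), Hsp90b1, Pdia6, Pdia3, Calr and Eif2ak3 were lost, and under quantile normalization those of Hspa5, Calr, Eif2ak3 and Chac1.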

How the results depend on the processing

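The number of genes called in WT Gly against WT saline, in KO Gly against WT Gly and in KO Gly against WT saline stayed within 1.5 times of the reported count under every alternative run. For KO Gly against KO saline it was 14 under median-ratio scaling and 3 without the KO saline libraries lacking Y-linked transcripts. For the interaction it was 0 without those libraries. For KO saline against WT saline it was 1 with no filter, 1 with the replicate block, 6 with only the groups compared in the fit, 13 with array weights, 4 without WT Gly libraries 1 and 5, and 0 without the libraries lacking Y-linked transcripts (0 features called by limma, 101 of 13020 and 0 of the 34 genes with p under 0.05 before adjustment). With each library left out in turn it ranged from 0 to 4. The cause of these changes was not tested. Same-numbered libraries did not deviate together (7 of 36 pairs with a correlation over 0.1, own number best in 7 of 72), and the replicate block gave 25, 18, 22, 1, 17 and 23 calls in the order WT Gly against WT saline, KO Gly against WT Gly, KO Gly against KO saline, KO saline against WT saline, interaction, KO Gly against WT saline.

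Directions turned for Atf6 in WT Gly against WT saline (-0.26 under median-ratio scaling, -0.27 under quantile normalization), Dnajc3 there (-0.27 under median-ratio scaling), Canx in KO Gly against WT saline (-0.043 under median-ratio scaling), Ddit4 in KO Gly against KO saline (-0.22) and Edem1 in KO saline against WT saline (0.048), both without the libraries lacking Y-linked transcripts, and Sel1l in KO Gly against WT Gly (-0.23 without WT Gly libraries 1 and 5). The unknown depth limits what low values such as those of Chac1 and Trib3 can show.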
